A study of Sus scrofa with 3 samples.

Results

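Genes of TGF-beta, BMP and activin signalling were followed in visceral adipose tissue (VAT) of miniature pigs on a diet rich in fat and cholesterol (HFC diet). The members were taken by name: every mRNA gene whose symbol begins with TGFB, BMP, GDF, INHB, ACVR, SMAD, LTBP or SMURF and continues with letters or digits. This gave 55 of the 22826 mRNA genes in the deposited values, and none of the genes of other types matched. A symbol can carry such a prefix without the gene being a ligand, LTBP, receptor, SMAD or SMURF, and 5 members of that kind are described last of the members.

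The tissue was retroperitoneal fat of male Chinese Wuzhishan miniature pigs, 6 to 7 months old when obtained and fed the HFC diet for 12 weeks. Intact pigs (IM) had skin incisions only, castrated pigs (CM) had lost the testes, and castrated pigs with testosterone replacement (CMT) were also injected each week with 10 mg/kg testosterone propionate. Each group was represented by mixed RNA, from 4 to 6 pigs by the labels and 4 by the study's methods, and 1 library per group was sequenced. No difference below therefore has a replicate check, and differences between individual pigs cannot be told apart from differences between groups.

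These secreted dimeric ligands bind pairs of type I and type II receptor kinases on the cell surface. TGF-beta is released in a latent complex tied to the matrix by latent TGF-beta binding proteins (LTBPs). Type I receptors phosphorylate SMAD proteins, which join SMAD4 and enter the nucleus. TGF-beta and activin signal mainly through SMAD2 and SMAD3, and BMPs through SMAD1, SMAD5 and SMAD9. SMAD6, SMAD7 and the SMURF ubiquitin ligases restrain the pathway. In adipose tissue the TGF-beta branch is known for matrix deposition and for holding back adipocyte differentiation, and BMPs for commitment of progenitor cells to the adipocyte lineage.

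Values are UQRPKM, reads per kilobase of gene with scaling to the upper quartile of each library, so they are per length and can be compared between genes. Since 1 read is worth a fixed value for each gene, the reads behind the values could be worked out. Beside the log2 ratios of single members stands a 95% interval computed from these reads by the exact Clopper-Pearson method. The interval covers counting error only and not the variation among pigs. A gene was called when its levels differed by 1.5-fold or more and neither lay under 1 UQRPKM.

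Libraries held 16611931 (IM), 15561124 (CM) and 15106608 recovered reads (CMT). Adipocyte markers were abundant in all of them, with ADIPOQ at 74928 (IM), 69193 (CM) and 63873 UQRPKM (CMT). The CM library stood apart in hepatocyte markers, whose 11 genes summed to 9433 UQRPKM against 2557 in IM and 1737 in CMT. APOA1 alone had 2539 (IM), 2339 (CM) and 1714 UQRPKM (CMT), nearly all of the sum in IM and CMT but not in CM. The CMT library stood apart in skeletal muscle markers, whose 11 genes summed to 6130.3 UQRPKM against 82.3 in IM and 68.3 in CM. Mesothelial markers summed to 72.1, 132 and 242 UQRPKM in IM, CM and CMT. Endothelial markers summed to 9193, 7967 and 8607, and all 7 of them were lower in CM than in IM. Smooth muscle markers summed to 5597, 4221 and 4486, of which DES had 52.9, 33.0 and 459. ACTA2 and TAGLN, the most abundant of them, were lower in CMT than in CM, and the other 3 past the level, DES among them, were higher. In the order IM, CM and CMT, summed stromal markers were 66230.4, 65809 and 63839 UQRPKM, and summed adipocyte markers 125755, 120437 and 102145. Macrophage markers summed to 1153, 1295 and 1063, and T and natural killer cell markers to 680.3, 587 and 578. Erythroid markers summed to 4593, 4238 and 2364. Such sums follow their most abundant genes. EMR1 had 45.6, 93.6 and 30.6 UQRPKM, LOC100520753 (CD68) 17.2, 42.9 and 22.2, and the adipocyte marker LEP 167, 502 and 156. These 3 were called higher in CM than in IM. In that comparison 5 of 7 macrophage markers and 5 of 7 adipocyte markers were higher, the others lower. Of 6 kidney and adrenal markers 5 were listed at 0 in all libraries, and so were LRRN4, MYH11, CD163, CKM, MB and TNNT3 in the lists of their cell types. The part of these cell types in the results below was not tested, also where marker values are given beside them. In bulk tissue, fewer cells of a type and less RNA per cell cannot be told apart.

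Among the 55 members, 40 were above 0 in all libraries, 8 in only 1 or 2 of them, and 7 were listed at 0 throughout. The 7 were BMP10, BMP15, GDF3, INHBB, SMAD1, SMAD5 and SMURF2. SMAD1, SMAD5 and SMURF2 are used by most cell types, and CKM, an abundant muscle enzyme, was also listed at 0 in the CMT library that held 13334 reads of skeletal muscle markers. A listing at 0 was therefore not read as absence of expression. The members above 0 spanned the range from under 1 to 2805 UQRPKM in IM. Their median was 61.2 (IM), 61.2 (CM) and 60.7 UQRPKM (CMT), against 50.5, 50.6 and 49.8 for all mRNA genes above 0.

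**Figure D1:**
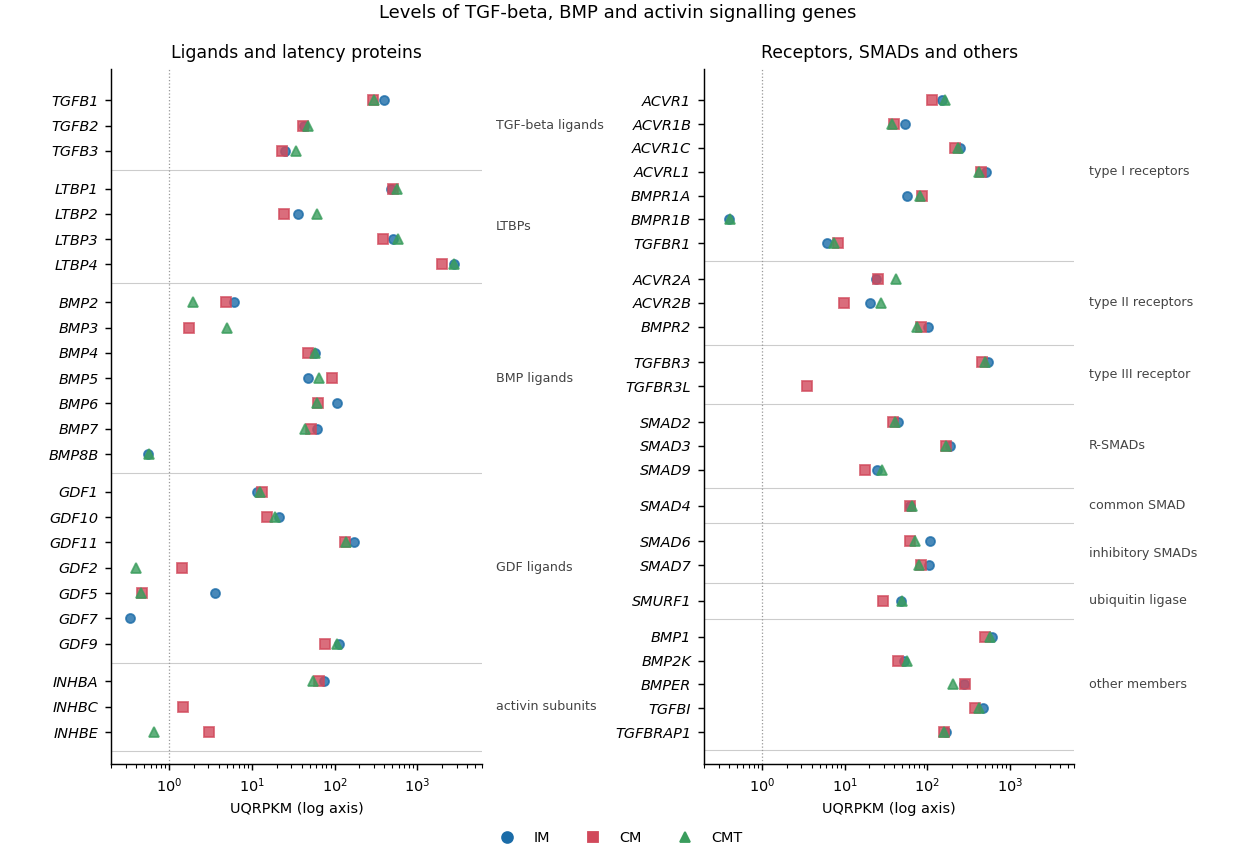
Level of each signalling gene above 0 in any library, in UQRPKM on a log axis, with 1 point per library (circle IM, square CM, triangle CMT) and genes grouped by role. A gene listed at 0 in a library has no point there, and the dotted line marks 1 UQRPKM. LTBP4 stands furthest right, and for LTBP2, ACVR2B, SMURF1 and SMAD9 the CM point lies left of both others.

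In CM versus IM, most members stood lower in the castrated library, by small steps. Of 39 members past the level of 1 UQRPKM, 31 had log2 ratios below 0, against 56.8% of all genes, and 8 above 0. Their median log2 ratio was -0.27, with quartiles at -0.46 and -0.09, against -0.06 over all 14123 mRNA genes past this level, with quartiles at -0.30 and 0.19. The interval lay wholly below 0 for 20 members, where 26.6% of all genes had such an interval, and wholly above 0 for BMPR1A alone, against 15.6%. Members had a median of 520.0 reads over the libraries compared and all genes 417, so slightly more precision stood behind the members.

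Few of these steps reached 1.5-fold. BMP6, ACVR2B, SMAD6 and SMURF1 were called lower and BMP5 higher, which makes 5 of 39 members against 18.8% of all genes in either direction. In the lower direction, the 4 members compare with 10.4% of all genes, and in the higher direction the single member with 8.38%. The share of members called was thus no greater than the background. An exact binomial test on the reads, adjusted by Benjamini-Hochberg over all mRNA genes, kept the 4 lower calls and not BMP5, where 10.1% of all genes were kept. That test compares the libraries and not the conditions.

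In CMT versus CM, which shares the CM library with the comparison above, the balance lay on the higher side. Of 40 members past the level, 26 were higher and 14 lower in CMT, with a median log2 ratio of 0.11 and quartiles at -0.07 and 0.49. All 14098 mRNA genes past the level had a median of -0.02, with quartiles at -0.24 and 0.22, and 47.3% were higher in CMT. LTBP2, LTBP3, BMP3, ACVR2A, ACVR2B, SMAD9 and SMURF1 were called higher and BMP2 lower, 8 of 40 against 19.5% of all genes in either direction. The 7 higher calls compare with 9.53% of all genes and the single lower call with 9.97%. The exact binomial test on reads kept 6 of them, all but BMP3, and did not keep BMP2, where 10.6% of all genes were kept. Intervals lay above 0 for 13 members and below 0 for 1, BMPER, against 17.3% and 21.1% of all genes.

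In CMT versus IM, which shares a library with each comparison above, the members were spread like the other genes. Of 39 members, 17 were higher and 22 lower in CMT, where 58.0% of all genes were lower. Their median log2 ratio of -0.08 was that of all 14151 genes past the level. LTBP2 and ACVR2A were called higher and BMP2, BMP6 and SMAD6 lower, 5 of 39 against 20.7% of all genes, or 8.81% in the higher and 11.9% in the lower direction. The exact binomial test on reads kept 4 of these calls, all but BMP2, beside 11.9% of all genes. Intervals lay above 0 for 6 members and below 0 for 15, against 15.0% and 29.5% of all genes.

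**Figure D2:**
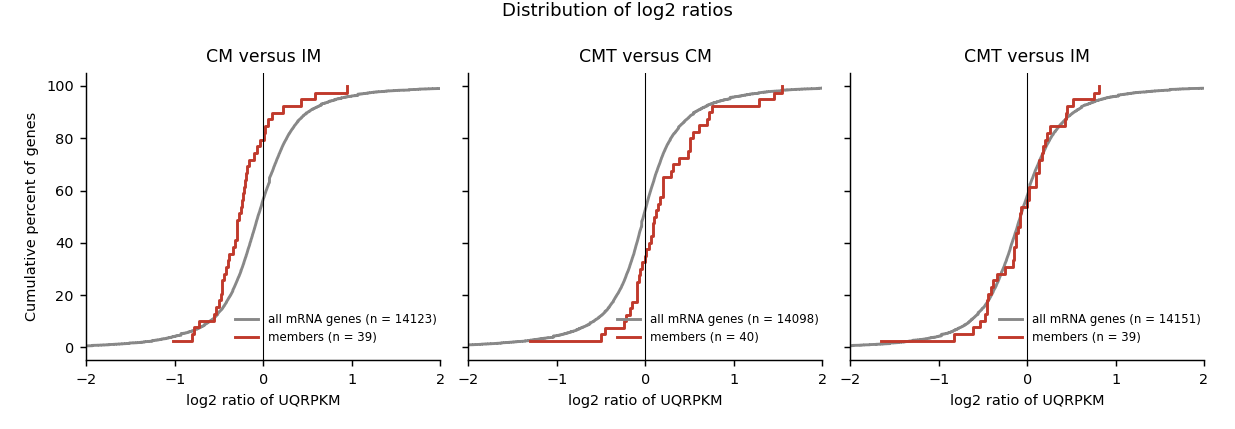
Cumulative percent of genes (vertical axis) by log2 ratio of UQRPKM (horizontal axis) for signalling genes (red) and all mRNA genes (grey) past the level of 1 UQRPKM, 1 panel per comparison. The red curve lies left of the grey one over most of CM versus IM (medians -0.27 and -0.06), right of it in CMT versus CM (0.11 and -0.02), and on it in CMT versus IM.

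Among the TGF-beta ligands, TGFB1 was the most abundant, with 402 (IM), 291 (CM) and 303 UQRPKM (CMT) from 1348, 929 and 996 reads. It was 1.38-fold lower in CM than in IM, with a log2 ratio of -0.47 (95% interval -0.59 to -0.35). CMT lay close to CM, with a log2 ratio of 0.06 (-0.07 to 0.19) between them, so neither step was called. TGFB2 had 42.3, 41.2 and 47.4 UQRPKM, and the intervals of all its ratios included 0. TGFB3, at 24.9, 23.2 and 33.8 UQRPKM, was highest in CMT, with a log2 ratio of 0.54 (0.29 to 0.80) to CM and 0.44 (0.20 to 0.69) to IM, both under the call.

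The LTBPs, most of which hold latent TGF-beta in the matrix, differed in their levels and patterns. LTBP4, the most abundant member in every library and also needed for elastic fibres, had 2805 (IM), 1975 (CM) and 2800.1 UQRPKM (CMT) from 14260, 9571 and 13949 reads. In IM it lay above 98.0% of the expressed mRNA genes, and it alone made up 31.6% of the summed UQRPKM of the members in IM, 27.7% in CM and 33.1% in CMT. Its level was lower in CM than in both others, with a log2 ratio of -0.51 (-0.54 to -0.47) from IM to CM and 0.50 (0.47 to 0.54) from CM to CMT. These steps are 1.42-fold each, narrow in counting error but below the call. With libraries scaled by the median ratio, the log2 ratio from IM to CM was -0.44, outside its interval. In CMT versus IM the ratio was near 0, with an interval of -0.04 to 0.03, and it moved to 0.04 when libraries were scaled by total UQRPKM and to 0.08 when scaled by the median ratio, both outside that interval.

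LTBP3 had 512 (IM), 382 (CM) and 581 UQRPKM (CMT) from 3200, 2279 and 3559 reads. It was 1.52-fold higher in CMT than in CM, just inside the call, with a log2 ratio of 0.60 (0.53 to 0.68), and 1.34-fold lower in CM than in IM. LTBP2, which binds fibrillin but not latent TGF-beta, had 35.9, 24.8 and 60.7 UQRPKM from 375, 247 and 621 reads. It was the LTBP that differed most, 2.45-fold higher in CMT than in CM at a log2 ratio of 1.29 (1.07 to 1.51). Unlike LTBP4, it also stood above the intact library in CMT, 1.69-fold with a log2 ratio of 0.76 (0.57 to 0.95). LTBP1 kept within 488 to 563 UQRPKM, and its largest log2 ratio was 0.20 (0.10 to 0.31) in CMT versus IM.

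BMP6, a ligand with a role in iron homeostasis and known from endothelial cells, was lower in both castrated groups. It had 109 (IM), 63.0 (CM) and 61.3 UQRPKM (CMT) from 266, 147 and 147 reads. The log2 ratio was -0.79 (-1.09 to -0.49) in CM versus IM, a 1.72-fold difference, and -0.83 (-1.13 to -0.53) in CMT versus IM. Between CMT and CM it was -0.04 (-0.38 to 0.30), and a smaller difference could not be detected at this depth. The endothelial markers, for comparison, moved by a median of -0.23 from IM to CM, of 0.10 from CM to CMT and of -0.27 from IM to CMT on the log2 scale. Among those past the level only ESAM was called, with -1.08 in CM and -0.86 in CMT against IM. KDR came next among them at -0.39 and -0.41. TIE1, with 13, 12 and 0 recovered reads in IM, CM and CMT, was listed at 0 in CMT. It is therefore not in the medians that involve CMT and could not be called there. Of 6 past the level in CMT versus IM, 4 were lower and 2 higher, PECAM1 at 0.13 and TEK at 0.06. The part of endothelial cells in the values of BMP6 was not tested.

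BMP4, known for driving progenitor cells towards the adipocyte lineage, had 57.4, 47.5 and 58.3 UQRPKM in IM, CM and CMT, with intervals that included 0 in every comparison. BMP7, a ligand linked to brown fat, had 61.2, 52.1 and 44.0 UQRPKM, and its log2 ratio was -0.48 (-0.72 to -0.23) in CMT versus IM. BMP5 had 48.2, 92.8 and 65.6 UQRPKM, and was called higher in CM than in IM at 1.92-fold. Its interval ran from -0.13 to 2.09 and included 0, since only 12, 22 and 16 reads were recovered at a fitted length of 167 bases. That length is short for a gene, and the reads could be a multiple of these numbers, which would narrow the interval.

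BMP2, a ligand of bone and cartilage formation, was scarce at 6.16, 4.85 and 1.97 UQRPKM from 16, 12 and 5 reads. It was called lower in CMT against both others, but the interval of its log2 ratio to CM ran from -3.16 to 0.31 and that to IM from -3.45 to -0.13. BMP3 rested on 0, 1 and 3 recovered reads at a fitted length of 408 bases. Its call in CMT versus CM has an interval from -2.09 to 7.26, which would narrow if the true reads are a multiple of these. BMP8B had 1, 0 and 1 reads. No level of these last genes can be ordered at this depth.

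Of the GDF ligands, GDF11 and GDF9 were best covered. GDF11, a ligand close to myostatin, had 174, 133 and 137 UQRPKM from 365, 266 and 282 reads. Its log2 ratio was -0.39 (-0.62 to -0.16) in CM versus IM and 0.04 (-0.20 to 0.29) between CMT and CM. GDF9, best known from the oocyte, had 113, 76.5 and 107 UQRPKM from 224, 145 and 208 reads. It was 1.47-fold lower in CM than in IM, just under the call, and 1.40-fold higher in CMT than in CM. GDF10 had 21.2, 15.3 and 19.0 UQRPKM and GDF1 11.5, 13.4 and 12.6, with intervals that included 0 throughout. GDF5, a joint-forming ligand, had 8 reads in IM and 1 in each castrated group, and its log2 ratio of -2.93 in CM versus IM had an interval of -8.40 to -0.03. GDF7 had 1 read, in IM.

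INHBA, the subunit of activin A, had 75.6, 64.2 and 55.1 UQRPKM and was lower in CMT than in IM by less than the call, with a log2 ratio of -0.46 (-0.75 to -0.17). The other ligand genes INHBE, INHBC and GDF2 are known mainly from the liver and were found chiefly in the CM library. In the order IM, CM and CMT, INHBE had 0, 9 and 2 reads, INHBC 0, 1 and 0, and GDF2, which encodes BMP9, 0, 7 and 2. Hepatocyte markers summed to 3417, 20812 and 2289 reads in the same libraries, of which APOA1 had 3371, 2959 and 2230. SERPINA1, APOH and TAT were listed at 0 outside CM. The part of hepatocytes in the reads of INHBE, INHBC and GDF2 was not tested.

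**Figure D3:**
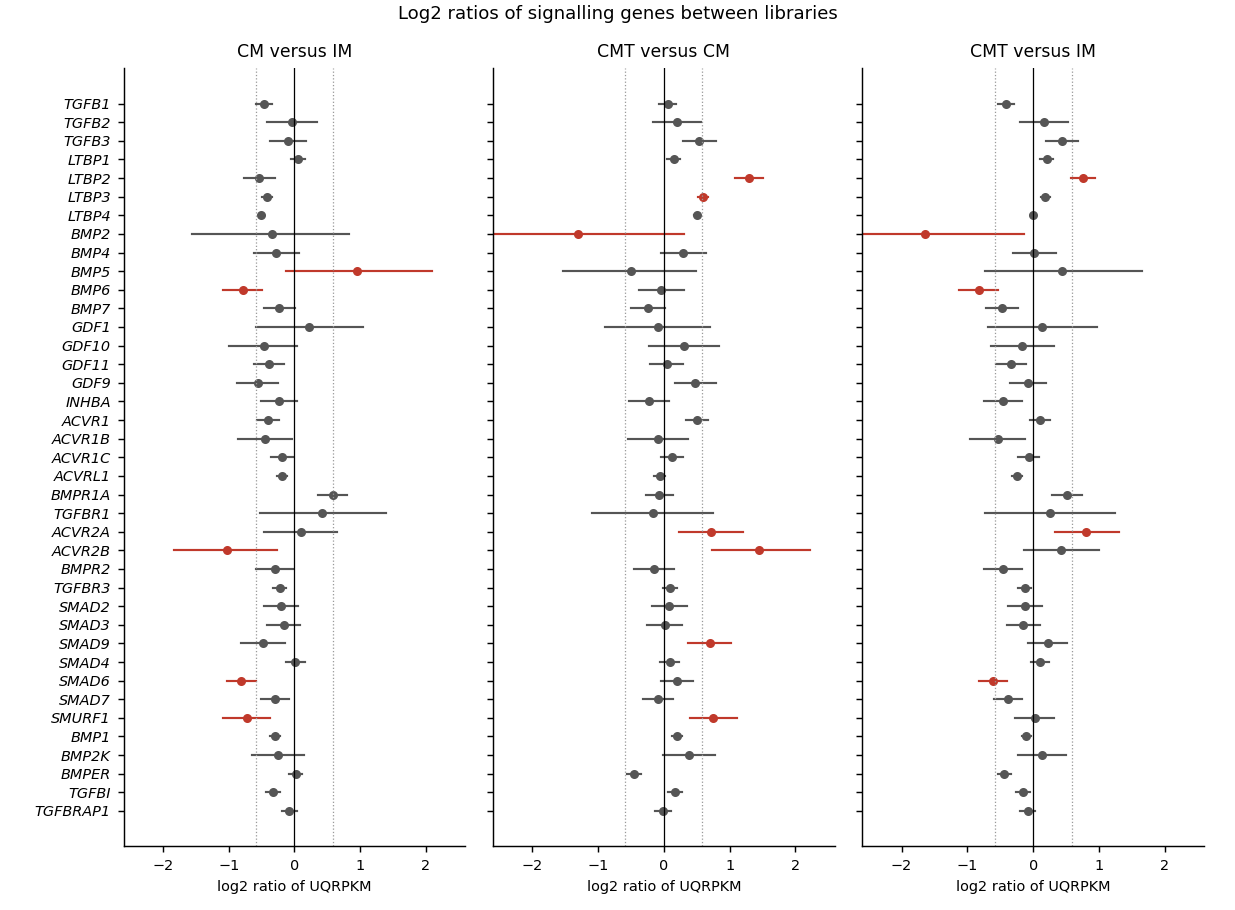
Log2 ratio of UQRPKM (horizontal axis) for the 39 signalling genes with at least 30 reads over the libraries, 1 panel per comparison, in order of role. Points are ratios and bars exact 95% intervals from reads, cut at the panel edge, red marks genes called at 1.5-fold (dotted lines) and grey the others. LTBP2 and ACVR2B lie furthest right in CMT versus CM, at 1.29 and 1.45, and BMP6 and SMAD6 lie left in both comparisons with IM.

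The type I receptors differed in level by over an order of magnitude. ACVRL1, the receptor of BMP9 on endothelial cells, was highest with 507 (IM), 446 (CM) and 426 UQRPKM (CMT). ACVR1C, the receptor ALK7 that is abundant in adipocytes, followed at 249, 218 and 238, then ACVR1, a BMP receptor, at 151, 114 and 162. BMPR1A had 57.5, 86.0 and 82.0 and ACVR1B, an activin receptor, 54.4, 39.9 and 37.5. TGFBR1, the receptor of TGF-beta itself, had only 6.19, 8.29 and 7.36 UQRPKM from 18, 23 and 21 reads, and BMPR1B had 1, 0 and 1 reads.

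BMPR1A, a receptor of BMP2 and BMP4, was the only member past the level whose interval lay wholly above 0 in CM versus IM. Its reads were 282, 402 and 394. The log2 ratio was 0.58 (0.36 to 0.81) in CM versus IM, just outside the call, and 0.51 (0.29 to 0.74) in CMT versus IM, with -0.07 (-0.27 to 0.13) between the castrated groups. Both castrated libraries therefore stood above the intact one by more than counting error. ACVR1 went another way, with log2 ratios of -0.40 (-0.57 to -0.24) in CM versus IM, 0.51 (0.34 to 0.67) in CMT versus CM and 0.10 (-0.05 to 0.25) in CMT versus IM. ACVR1B had -0.45 (-0.86 to -0.04) in CM versus IM and -0.54 (-0.96 to -0.12) in CMT versus IM. ACVRL1 and ACVR1C differed little, with no log2 ratio beyond -0.25.

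Both activin type II receptors were called in CMT versus CM. ACVR2B had 20.2 (IM), 9.93 (CM) and 27.2 UQRPKM (CMT) from 47, 22 and 62 reads. It was 2.04-fold lower in CM than in IM, with a log2 ratio of -1.03 (-1.83 to -0.27), and 2.74-fold higher in CMT than in CM, with 1.45 (0.73 to 2.23). CMT versus IM gave 0.43 (-0.14 to 1.01), an interval that includes 0. ACVR2A had 24.0, 25.7 and 42.2 UQRPKM from 57, 58 and 98 reads. Here IM and CM did not differ beyond counting error, at 0.09 (-0.46 to 0.65), and CMT stood above both, by 0.72 (0.23 to 1.21) over CM and 0.81 (0.33 to 1.31) over IM. ACVR2B is also the main receptor of myostatin in muscle, and the CMT library held skeletal muscle reads, whose part in these values was not tested. MSTN itself, the myostatin gene, had 0, 1 and 1 reads.

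BMPR2, the type II receptor of BMPs, had 103, 83.6 and 75.2 UQRPKM, with log2 ratios of -0.30 (-0.58 to -0.02) in CM versus IM and -0.45 (-0.74 to -0.16) in CMT versus IM. TGFBR3, betaglycan, which presents TGF-beta and inhibin to the receptors, was among the most abundant members at 541, 464 and 495 UQRPKM, with a log2 ratio of -0.22 (-0.32 to -0.12) in CM versus IM. TGFBR3L had 7 reads in CM and was listed at 0 in IM and CMT. TGFBR2 was not among the 55 genes matched and was not analysed here.

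For the SMADs of the TGF-beta and activin branch no difference exceeded counting error. SMAD2 had 44.0, 38.2 and 40.5 UQRPKM and SMAD3 188, 168 and 169, and the intervals of their ratios included 0 in every comparison. SMAD4, the partner of all of them, had 61.5, 62.0 and 66.1 UQRPKM from 794, 763 and 836 reads, with a log2 ratio of 0.01 (-0.13 to 0.16) in CM versus IM, of 0.09 (-0.05 to 0.24) between CMT and CM, and of 0.10 (-0.04 to 0.25) in CMT versus IM. SMAD9, of the BMP branch, had 24.4, 17.5 and 28.4 UQRPKM from 184, 126 and 210 reads. It was called 1.62-fold higher in CMT than in CM at a log2 ratio of 0.70 (0.37 to 1.03), and was lower in CM than in IM by less than the call, at -0.48 (-0.82 to -0.14).

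The inhibitory SMADs were highest in the intact library. SMAD6, which mainly restrains BMP signals, had 107 (IM), 61.2 (CM) and 70.2 UQRPKM (CMT) from 472, 257 and 303 reads. It was 1.75-fold lower in CM than in IM, with a log2 ratio of -0.81 (-1.03 to -0.59), and 1.53-fold lower in CMT than in IM, with -0.61 (-0.82 to -0.40). The call in CMT versus IM was lost when libraries were scaled by total UQRPKM or by the median ratio. CMT versus CM gave 0.20 (-0.05 to 0.44). SMAD7, which restrains both branches, had 104, 85.0 and 79.9 UQRPKM, with -0.30 (-0.51 to -0.09) in CM versus IM and -0.38 (-0.60 to -0.17) in CMT versus IM, neither called.

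SMURF1, the ubiquitin ligase that marks BMP SMADs and receptors for breakdown, was lower in CM than in both other libraries. It had 48.2 (IM), 29.1 (CM) and 48.9 UQRPKM (CMT) from 186, 107 and 185 reads. The log2 ratio was -0.73 (-1.09 to -0.38) in CM versus IM, 0.75 (0.40 to 1.11) in CMT versus CM, and 0.02 (-0.28 to 0.32) in CMT versus IM. Both steps that involve CM were called and passed the exact binomial test on reads.

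The 5 members outside these classes, among them the BMP-binding protein BMPER, were all well covered, and none was called. BMP1, a protease that trims procollagen, had 611, 496 and 569 UQRPKM, with a log2 ratio of -0.30 (-0.38 to -0.23) in CM versus IM. TGFBI, a matrix protein induced by TGF-beta, had 471, 376 and 424, with -0.32 (-0.43 to -0.22) in the same comparison. BMPER, which is secreted, had 279.8, 283 and 206 UQRPKM and was lower in CMT than in both others, with log2 ratios of -0.46 (-0.56 to -0.35) to CM and -0.44 (-0.54 to -0.34) to IM. TGFBRAP1, a trafficking protein, kept within 160.2 to 169.9 UQRPKM, and BMP2K, a kinase, had 52.3, 44.0 and 57.3.

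Other genes of the pathway were taken from a list by function, of which 74 were found in the values. In CM versus IM, 4 were called higher and 4 lower of 53 past the level, with a median log2 ratio of -0.20. In CMT versus CM, 6 were higher and 4 lower of 53, with a median of 0.05, and in CMT versus IM 4 were higher and 7 lower of 53, with a median of -0.09. The shares called, 15.1%, 18.9% and 20.8%, lay near or under those of all genes given above.

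Of 9 extracellular antagonists past the level, 3 were called higher in CMT than in CM and 2 higher than in IM, where 9.53% and 8.81% of all genes were. The exact binomial test on reads kept 2 in each case. Of 9 latency and activation genes, 1 was called higher in CMT in each comparison, THBS1, and the medians of that list were -0.04 to CM and -0.28 to IM. GREM1, a BMP antagonist of stromal cells, had 62.7, 62.6 and 111 UQRPKM and was higher in CMT by 0.83 on the log2 scale against both others. FMOD, a small proteoglycan that binds TGF-beta, had 280.1, 320.3 and 719, with log2 ratios of 1.17 to CM and 1.36 to IM. THBS1, which activates latent TGF-beta, had 257, 195 and 469 and a log2 ratio of 1.27 to CM and 0.87 to IM. Mesothelial markers had median log2 ratios of 0.88 and 3.20 in the same comparisons, 4 called higher in each and KRT18 lower. Stromal markers had medians of 0.13 and -0.13 and were mixed, 7 of 9 higher than in CM and 4 of 9 higher than in IM. DPP4 was called higher than in CM at 1.10. Against IM, PDGFRA was called higher at 0.59 and COL1A1 lower at -0.79. DCN, which is also in the antagonist list, had 0.40 and 0.42 without a call. The part of mesothelial and stromal cells in the calls of GREM1, FMOD and THBS1 was not tested. CHRD, an antagonist of BMPs, rested on 15, 9 and 16 recovered reads. It was called lower in CM than in IM and, against CM, higher in CMT, neither of which the exact test kept. These reads are the smallest that fit, and the test would be stronger if the true reads are a multiple of them. FST, the activin antagonist follistatin, had 176, 176 and 227 UQRPKM and was not called, nor was CHRDL1, at 2429, 2053 and 2495 the most abundant BMP antagonist of the list.

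Among coreceptors, ENG, an endothelial coreceptor, had 1759, 1212 and 1295 UQRPKM, with a log2 ratio of -0.54 in CM versus IM, under the call. RGMB, a BMP coreceptor, was called lower in CMT against both others at log2 ratios near -1.0 and -1.03 from 73, 68 and 35 reads. HFE2, the BMP coreceptor hemojuvelin that is known from muscle and liver, had 0 (IM), 10 (CM) and 31 reads (CMT) and was called higher in CMT versus CM at 1.59. The skeletal muscle markers, which summed to 190, 148 and 13334 reads, were also highest in CMT, and their part in the reads of HFE2 was not tested. AMHR2, the receptor of anti-Müllerian hormone, rested on 13, 3 and 4 reads and was called lower in CMT versus IM. These calls make 2 of 5 coreceptors past the level in CMT versus CM and 2 of 5 in CMT versus IM. The shares of all genes were 19.5% and 20.7%, and a list of 5 genes is too short to weigh against them. In the latency list, FBN2, a fibrillin, was called lower in CM versus IM at -0.72. ITGB8, an integrin subunit that activates latent TGF-beta, was called higher at 0.65 (0.04 to 1.29), a call that the exact test did not keep. That makes 2 of 9 past the level, or 22.2%, against 18.8% of all genes.

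Target genes of TGF-beta and activin were called in both directions. Of 13 genes induced by TGF-beta or activin that passed the level in CM versus IM, 3 were called higher and 1 lower, against 8.38% and 10.4% of all genes, with a median log2 ratio of -0.25. The exact binomial test on reads kept the lower call and 1 of the higher ones, CDKN1A. COL1A1, a main fibrillar collagen, had 4453, 2235 and 2580.1 UQRPKM, with -0.99 in CM versus IM, whereas COL3A1 had 43498, 46011 and 39816. CDKN1A, a cell cycle inhibitor, and KLF10, a TGF-beta induced factor, were called higher in CM at 0.89 and 0.74 (0.01 to 1.49 for KLF10), and CDKN2B, the other higher call, rested on 4, 8 and 2 reads. In CMT, POSTN, a matrix protein, was called higher than in CM at 0.89 and than in IM at 0.85, and CYR61 and JUNB, early response genes, lower at -0.73 and -0.88. CYR61, JUNB, COL1A1 and ACTA2 were called lower in CMT than in IM, at -1.14, -1.08, -0.79 and -0.68. Of 12 targets past the level, the calls were 1 higher and 2 lower in CMT versus CM, against 9.53% and 9.97% of all genes. In CMT versus IM they were 1 higher and 4 lower, against 8.81% and 11.9%, or 41.7% called in either direction against 20.7%. Intracellular regulators formed a separate list, with 11 past the level. PMEPA1, a feedback inhibitor, was the only one called in CMT versus CM, lower at -0.68. PPP1R15A, a phosphatase subunit, was the only one called in CMT versus IM, lower at -0.59. That makes 9.09% in each, against 19.5% and 20.7% of all genes.

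Of 7 BMP targets past the level, MSX1 was called lower in CM than in IM at -0.80, which makes 14.3% against 18.8% of all genes, and none was called in the other comparisons. ID1, the classical direct target, had 594 (IM), 416 (CM) and 434 UQRPKM (CMT) from 442, 295 and 316 reads, and its log2 ratio to IM was -0.51 in CM and -0.45 in CMT. ATOH8, another target, had 188, 136 and 133 UQRPKM, with -0.47 and -0.50. ID2 and HEY1 stayed within 259 to 276 and within 80.6 to 83.4 UQRPKM. HAMP, the BMP6 target hepcidin made in liver, had 24.7 UQRPKM in CM and was listed at 0 in the others. Only 2 reads were recovered for it in CM, the smallest number that fits, and the true number could be a multiple.

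**Figure D4:**
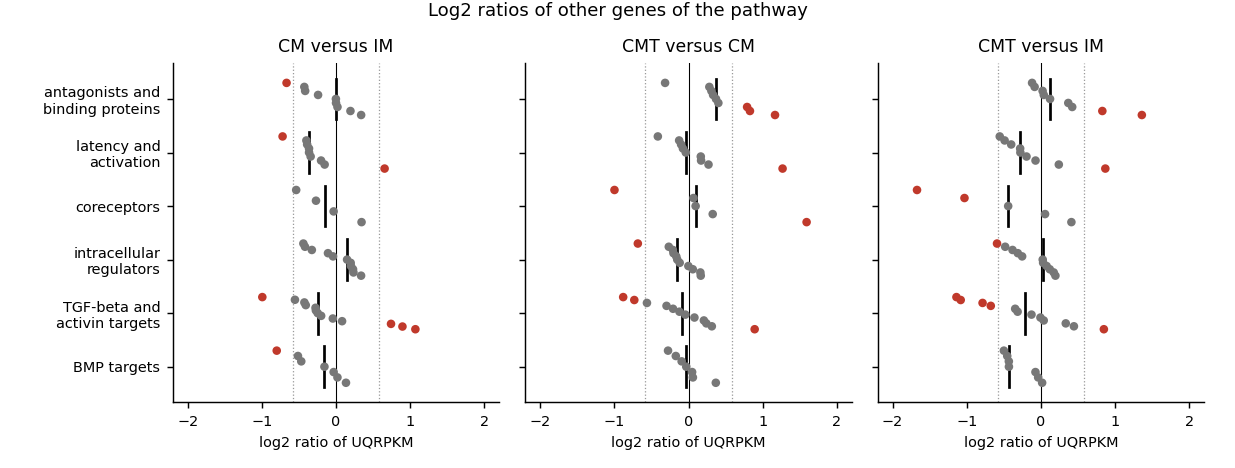
Log2 ratio of UQRPKM (horizontal axis) of pathway genes outside the named families, 1 row per functional list and 1 panel per comparison, for genes past the level of 1 UQRPKM. Each point is a gene, red where called at 1.5-fold (dotted lines), and vertical bars are list medians, which for the antagonists are 0.00 from IM to CM and 0.37 from CM to CMT.

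Counting may have mixed reads of neighbouring genes. In the RefSeq annotation of Sscrofa11.1, a later build than that of the files, 11 of the 55 members overlap another protein-coding gene, among them LTBP2 (ISCA2), TGFB3 (IFT43), BMPR1A (MMRN2), SMAD3 (AAGAB) and SMAD4 (ELAC1). Whether strand was used in counting is not given in the sources used here.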

How the data were processed

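Total RNA of retroperitoneal fat was pooled by group and sequenced as 1 single-end Ion Proton library each for IM, CM and CMT. After filtering of adaptors and poor reads, the authors used MapSplice and the Sscrofa 10.2 genome for mapping. They deposited RPKM values in which the upper quartile of a library takes the place of its total (UQRPKM). The counting tool and annotation are not given in the sources used here. Groups followed the sample labels.

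Reads were recovered with Python 3.11.15, numpy 2.4.6 and scipy 1.17.1. Upper quartiles of 149, 142 and 146 were taken from the commonest ratios between low values, and every gene was given the smallest length, of at most 120000 bases, at which its values were whole reads. This worked for 100% of 20838 genes above 0 within a relative error of 7.65e-09. Reads that share a common factor with the length are underestimated by it. The interval of such a gene is then too wide and the exact test too weak. The quartiles, the recovery of reads, the calls, the exact test and the intervals were tested on simulated data. The simulation took the fitted lengths as true, so it cannot show how far the reads of a gene such as BMP5 are underestimated.

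A call needed a fold change of 1.5 and 1 UQRPKM in both libraries, the limits of the study's methods without its test, as 1 library per group allows no test of conditions. Intervals are exact Clopper-Pearson 95% intervals and cover counting error only, not variation among pigs. They treat reads as independent. Amplified reads are not independent molecules, so the intervals can be too narrow even for counting error. Alternatives were a 2-fold limit, other filters on low values (none, or 10 reads), a pseudocount of 1, scaling by total UQRPKM or by the median ratio over 10046 genes with 50 reads in each library, and an exact binomial test on reads with a limit of 0.05 after adjustment. Every member is named, and described in full where it was called with at least 30 reads or led its role, and pathway genes are named where called with 30 reads. Intervals of other members, genes of lower counts, and genes not called that are named beside them (such as ID1, ENG, FST, CHRDL1, ID2, HEY1, ATOH8, COL3A1, MSTN, HAMP and CDKN2B), were chosen after their values were seen. The members and the lists of pathway and marker genes were chosen with earlier results of these data known.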

Additional observations from a re-analysis of the deposited data

How the results depend on the processing

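No paired analysis was possible because each group is 1 pooled library without a replicate number, and no library could be left out for the same reason. A limit of 2-fold left 1 member called in CM versus IM (ACVR2B), 4 between CMT and CM, and 1 in CMT versus IM (BMP2). The other alternatives kept the counts of called members within 1.5 times, at 4 to 6, 6 to 10 and 4 to 6. Under them 13697 to 15158 of all genes could be called. Of these, 618 to 1556 were called higher and 814 to 1861 lower in CM versus IM. The ranges were 714 to 1744 and 784 to 1803 in CMT versus CM, and 648 to 1649 and 1043 to 2074 in CMT versus IM. The median log2 ratio of members kept its sign under every scaling, filter and pseudocount tried in CM versus IM (-0.29 to -0.21) and CMT versus CM (0.09 to 0.13). In CMT versus IM it turned from -0.08 to 0.0067 under median-ratio scaling, and so did the median of all genes. That scaling shifts all ratios by 0.06, 0.02 and 0.08 on the log2 scale. Among called or nearly called members, scaling by total UQRPKM or by the median ratio brought BMPR1A into the call in CM versus IM, and median-ratio scaling also did so in CMT versus IM. Both scalings took SMAD6 out of it in CMT versus IM. For BMP2, BMP3, BMP5, GDF5, INHBE, GDF2 and other members of few reads, depth limits what can be said.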
